A study of Mus musculus with 19 samples.

Results

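Expression of the hedgehog pathway was followed through 9 genes in 19 mouse RNA-seq libraries. The genes were the ligands Shh, Ihh and Dhh, the receptors and the ligand-binding protein Ptch1, Hhip and Smo, and the transcription factors Gli1, Gli2 and Gli3. They were chosen by name, as the rows of the normalized count table whose Ensembl identifiers carry these symbols in GENCODE vM21. All 9 were found among 46078 rows, each once.

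The libraries came from wild type mammary glands (MG-WT, n = 3), mammary glands of tumor-bearing MMTV-neu mice (MG-N, n = 4), mammary glands of tumor-bearing MMTV-neu mice with mutant p53 in the stroma (MG-NP, n = 4), and tumors of both neu genotypes (T-N and T-NP, n = 4 each). MMTV-neu drives the Erbb2 oncogene in mammary epithelium and was carried by every mouse except the wild type ones. NP mice were MMTV-neu;p53wm-R172H/+;Fsp-Cre, in which an Fsp promoter drives Cre in fibroblasts and Cre switches 1 p53 allele from a wild type to an R172H product. T-N mice and MG-N replicate 1 were MMTV-neu;Fsp-Cre, whereas MG-N replicates 2 to 4 were MMTV-neu;p53wm-R172H/+ without Cre. The glands of neu mice had no malignant lesion, the neu mice were of mixed FVB, C57 and BALB/c background, and the wild type glands were matched for an age that is not given. Library names of T-NP replicates 1 and 2 share an animal number, and these 2 libraries were the most alike of 27 within-group pairs, although they still differed far beyond sampling noise (mean chi-square per gene 48.4). The libraries of a group are described as biological replicates, and the other neu libraries carry names with different animal numbers.

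Hedgehog ligands are secreted proteins that bind PTCH1 on the receiving cell. Without ligand, PTCH1 holds the transmembrane protein SMO inactive, and GLI3 is processed into a repressor. With ligand, SMO acts at the primary cilium, GLI2 becomes an activator, and transcription of Gli1, Ptch1 and Hhip rises, so that the pathway feeds back on itself through PTCH1 and HHIP. In the embryonic mammary gland, repression by GLI3 is needed for buds to form, and stromal cells of many organs respond to ligands made by epithelium.

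Because Hhip and Gli2 were called lower in tumors than in glands and Ptch1 was not, the sequences around their annotated starts are shown (RefSeq, GRCm38.p6, minus strand in each case, written 5′ to 3′ on the gene's strand). Ptch1 lies at chr13:63565686-63565985, Hhip at chr8:80057959-80058258 and Gli2 at chr1:119053570-119053869. Lower case marks the 250 bases before the start and capitals the 50 bases after it.
Ptch1: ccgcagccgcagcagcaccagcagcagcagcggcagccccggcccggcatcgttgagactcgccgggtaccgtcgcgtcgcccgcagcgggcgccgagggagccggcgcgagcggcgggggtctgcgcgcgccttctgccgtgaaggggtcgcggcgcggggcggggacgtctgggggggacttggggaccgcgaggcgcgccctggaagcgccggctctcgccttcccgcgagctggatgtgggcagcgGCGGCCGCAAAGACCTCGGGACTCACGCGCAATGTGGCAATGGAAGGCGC
Hhip: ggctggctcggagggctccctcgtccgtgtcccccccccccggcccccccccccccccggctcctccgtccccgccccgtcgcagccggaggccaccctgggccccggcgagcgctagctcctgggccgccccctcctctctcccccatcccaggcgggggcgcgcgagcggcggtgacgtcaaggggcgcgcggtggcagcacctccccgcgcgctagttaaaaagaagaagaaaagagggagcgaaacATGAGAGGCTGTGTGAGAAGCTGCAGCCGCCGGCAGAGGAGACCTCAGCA
Gli2: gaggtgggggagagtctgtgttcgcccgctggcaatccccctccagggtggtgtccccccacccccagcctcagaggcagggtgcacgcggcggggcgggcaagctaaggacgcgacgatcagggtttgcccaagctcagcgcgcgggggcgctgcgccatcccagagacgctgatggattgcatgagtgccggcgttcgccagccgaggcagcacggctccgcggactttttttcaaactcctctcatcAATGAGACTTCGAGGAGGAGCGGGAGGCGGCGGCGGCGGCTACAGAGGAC
The GLI binding motif GACCACCCA, searched on both strands (reverse complement TGGGTGGTC), was in none of the 7 members' promoters that the table holds, which are those of Ihh, Dhh, Ptch1, Hhip, Smo, Gli2 and Gli3. It was in 83 of all 32851 promoters of 300 bases (0.253%). A missing match says only that these letters are not in this window.

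Sequencing depth was 20899152 to 27262440 reads per library in the 16 neu libraries and 54677315 to 62645459 in MG-WT, so depth and any batch that goes with it cannot be told apart from the wild type group. The cellular make-up of the libraries also differed. Summed normalized counts of 9 white adipocyte markers were 190200 to 523300 in the 8 neu glands, 437 to 10170 in the 8 tumors and only 2621 to 4105 in MG-WT, a low level for a tissue that is largely fat. The 12 fibroblast markers summed to 151500 to 499400 in MG-N, 70100 to 157600 in MG-NP, 29660 to 273400 in T-N and 27740 to 56640 in T-NP. The 9 luminal markers summed to 14200 to 32880 in neu glands and 103700 to 175600 in tumors. Skeletal muscle markers ranged from 11020 to 2684000 in MG-NP. Apart from fits with a covariate for skeletal muscle markers, the part these shifts play in the results below was not tested. In bulk RNA, fewer cells of a type and less RNA per cell cannot be told apart.

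**Figure D1:**
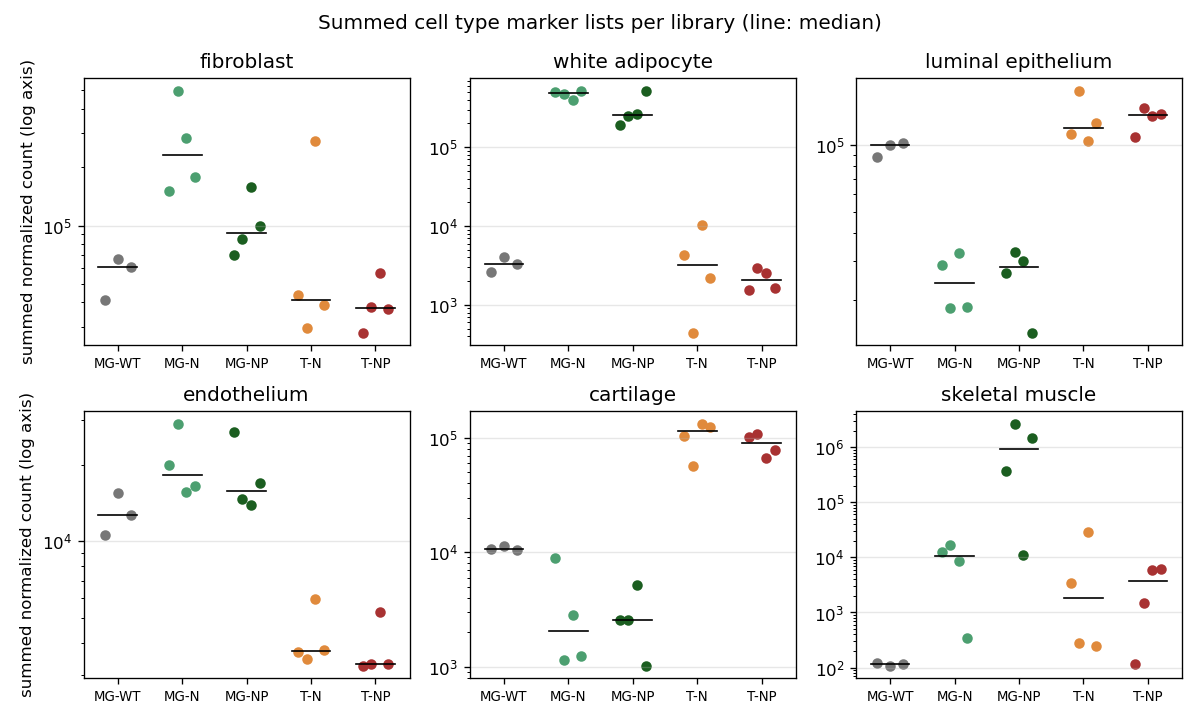
Summed normalized counts of 6 cell type marker lists (log axis) in each library of the 5 groups, with a line at the group median. Adipocyte, fibroblast and endothelial sums were mostly higher in neu glands than in tumors, luminal and cartilage sums were higher in all tumors than in all neu glands, and T-N replicate 3 kept a fibroblast sum of 273400.

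Of the ligands, only Dhh had more than traces of reads. Shh, the ligand of limb and neural tube patterning, had 4 reads in all 19 libraries together, and both tumor groups were at 0 in every library. At most 1 read fell in any library, so differences in Shh were not detectable at this depth. Ihh, best known from growing cartilage, stood at 7.68, 7.81 and 7.23 normalized counts in MG-WT (14 to 18 reads). It was between 0 and 2.06 in MG-N, between 1.08 and 2.58 in MG-NP, between 1.05 and 5.84 in T-N and between 0 and 5.2 in T-NP. The 3 wild type glands lay above all 16 neu libraries. With no neu gland above 3 reads, Ihh was at least 2.3-fold lower in MG-N and at least 2.12-fold lower in MG-NP than in MG-WT. Neither Shh nor Ihh reached 10 normalized counts in enough libraries to enter the tests, and they are counted below among the 9 genes but not among those tested.

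Dhh, the ligand made by Schwann cells and Sertoli cells, had 79.3, 70.8 and 86.3 normalized counts in MG-WT. MG-N glands had 123.5, 81.6, 57.3 and 71.1, and MG-NP glands 39.1, 62.8, 40.1 and 71.0. The values were 17.0, 30.6, 14.1 and 262.6 in T-N and 53.8, 11, 3.90 and 21.2 in T-NP. T-N replicate 4 thus held the highest Dhh value of all libraries while the other 3 T-N tumors lay below every MG-N gland. T-NP tumors were lower than MG-NP glands apart from replicate 1, which lay within the gland range. All 8 Schwann cell markers were above 10 normalized counts in every gland library, and their sums were 4138 to 8207 in neu glands and 6426 to 11340 in tumors. About 25.2% of the exonic bases of Dhh lie in exons of other genes, among them Rhebl1 on the same strand, so part of its reads could not be assigned with certainty. For Shh this share was 28.3% and for Gli1 6.5%, whereas it was at most 2.0% for the other members.

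**Figure D2:**
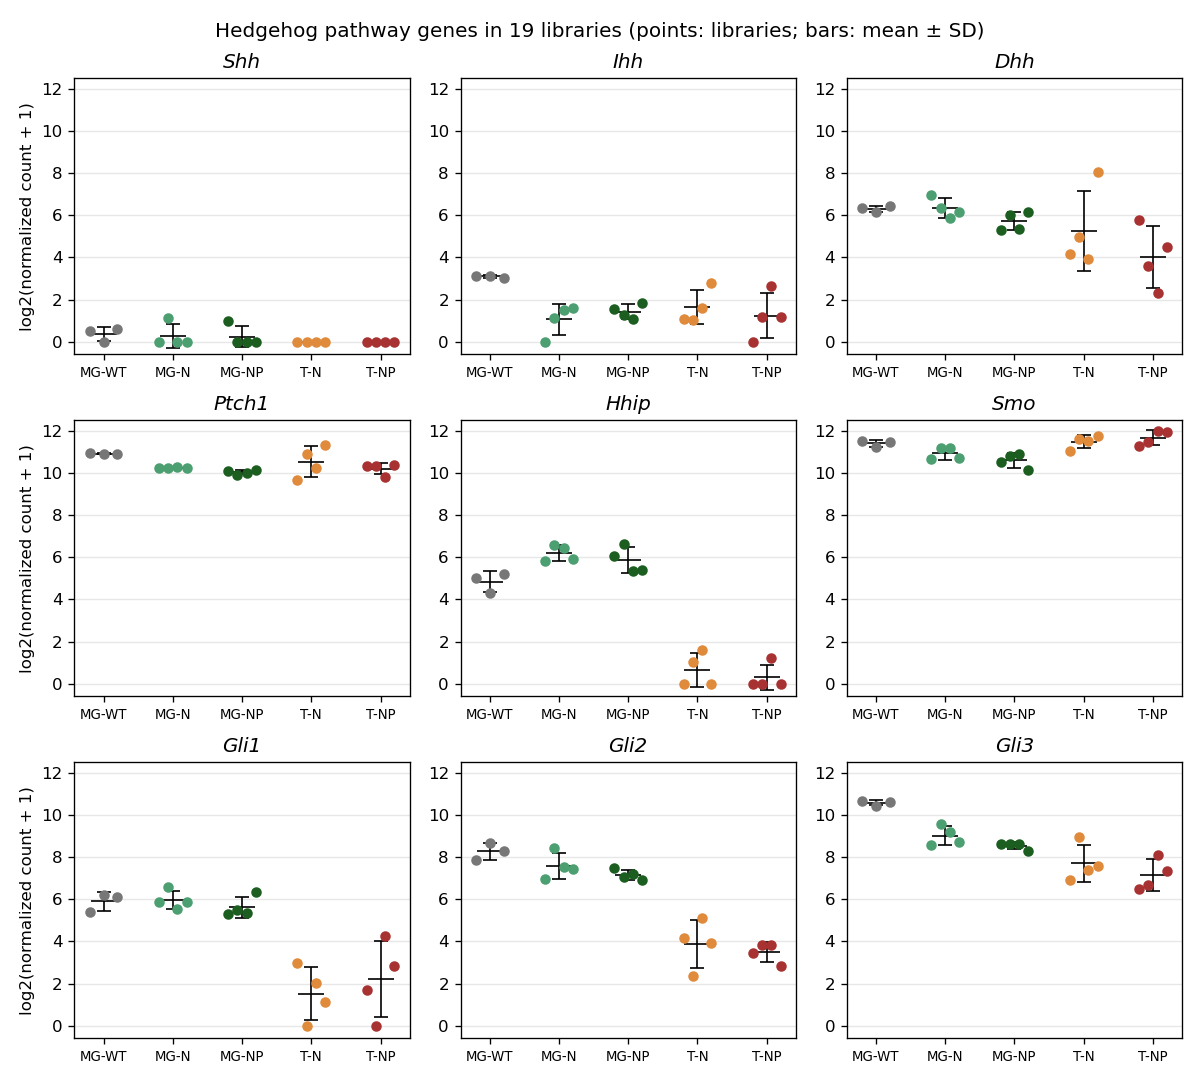
Log2(normalized count + 1) of the 9 genes in each of 19 libraries by group (points), with the group mean and SD (bars). Hhip, Gli1 and Gli2 of all tumors lay below all glands, Ptch1 and Smo stayed near the top of the scale in every group, Shh was near 0, and Ihh was highest in MG-WT.

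The first comparison asked how pathway expression in tumors differed from that in glands with the same p53 status in fibroblasts. All T-N tumors had Fsp-Cre without the p53wm-R172H allele, whereas most MG-N glands had that allele without Cre. In T-N against MG-N, tissue therefore cannot be fully told apart from these alleles. A gene was called when limma's adjusted p-value (Benjamini-Hochberg over all genes tested) was under 0.05 and the change was at least 2-fold on the log2(normalized count + 1) scale. In T-N against MG-N, 7 of the 9 genes could be tested, 4 were called lower (Hhip, Gli1, Gli2 and Gli3) and 0 higher. Among all 17950 genes tested, 22.3% were called lower and 12.8% higher. In T-NP against MG-NP, 7 were tested, the same 4 genes were called lower and Smo was called higher, beside 24.0% and 14.7% of 17880 genes. The median log2 fold change of the tested members was -1.31 in T-N (all genes -0.05) and -1.68 in T-NP (all genes -0.07).

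Hhip, which binds and sequesters all 3 ligands, was detected in every gland. Normalized counts of MG-N were 54.8, 96.5, 86.4 and 59.7, and those of MG-NP 66.8, 98.5, 40.1 and 41.3. In tumors they were 0, 1.05, 2.02 and 0 (T-N) and 0, 0, 1.30 and 0 (T-NP). No tumor exceeded 3 reads, and the groups were far apart. Relative to that floor Hhip was at least 22.7-fold lower in T-N than in MG-N and at least 16.8-fold lower in T-NP than in MG-NP (limma adjusted p = 7.92e-05 and 3.08e-05).

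Gli1, the amplifier and most widely used reporter of the pathway, followed the same direction. It had 57.3, 95.4, 45.1 and 57.7 normalized counts in MG-N against 6.82, 0, 3.03 and 1.17 in T-N. In MG-NP it had 38.2, 44.2, 40.1 and 81.4 against 2.24, 0, 18.2 and 6.24 in T-NP. Every tumor lay below every gland, with T-NP replicate 3 the closest. The log2 fold change was -4.44 (SE 0.62, limma adjusted p = 0.000632) in T-N and -3.42 (SE 0.82, limma adjusted p = 0.00721) in T-NP.

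Gli2, the main activator, was called in both genotypes as well. Normalized counts were 122.3, 348.2, 182.2 and 171.0 in MG-N and 17.0, 4.21, 33.3 and 14.0 in T-N. They were 175.5, 132.7, 145.1 and 120.1 in MG-NP and 10.1, 13.4, 13.0 and 6.24 in T-NP. All tumors lay below all glands, and the log2 fold changes were -3.69 (SE 0.58, limma adjusted p = 0.00109) and -3.66 (SE 0.31, limma adjusted p = 4.2e-05).

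Gli3, the main repressor, also fell and stayed at 87.5 normalized counts or more in every tumor. MG-N glands had 383.4, 773.5, 589.8 and 418.1 and T-N tumors 119.3, 501.5, 166.6 and 191.4, so that T-N replicate 2 lay within the gland range. MG-NP glands had 394.9, 396.8, 389.9 and 312.5 and T-NP tumors 87.5, 101.3, 278.0 and 163.6, without overlap. The log2 fold change was -1.31 (SE 0.44, limma adjusted p = 0.0328) in T-N and -1.38 (SE 0.35, limma adjusted p = 0.00956) in T-NP. The T-N call was lost with edgeR's quasi-likelihood test on the recovered reads (adjusted p = 0.0608) and without any 1 of 6 libraries (MG-N replicates 2, 3 and 4 and T-N replicates 1, 3 and 4; limma adjusted p = 0.0511 to 0.0885).

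Ptch1, the ligand receptor and itself a target, was not called in either genotype. MG-N glands were tightly grouped at 1228, 1202, 1234 and 1190 normalized counts, whereas T-N tumors spread over 826, 1915, 1194 and 2597. MG-NP glands had 1090, 975, 1013 and 1143 and T-NP tumors 1276, 1281, 892 and 1350. T-N tumors lay on both sides of the glands and 3 of 4 T-NP tumors above them. The log2 differences of 0.29 (95% interval -0.43 to 1.02) in T-N and 0.17 (-0.18 to 0.52) in T-NP did not pass the test (limma adjusted p = 0.461 and 0.38).

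Smo, the signal transducer that PTCH1 restrains, was the only member called higher in tumors, and only in T-NP. It had 1600, 2332, 2346 and 1676 normalized counts in MG-N and 2132, 3098, 2969 and 3497 in T-N, with T-N replicate 1 inside the gland range. In T-NP all 4 tumors (2530, 2823, 4128 and 3998) exceeded all 4 MG-NP glands (1483, 1794, 1938 and 1127). The log2 fold change was 0.56 (SE 0.20, limma adjusted p = 0.0444) in T-N, below the 2-fold threshold, and 1.08 (SE 0.23, limma adjusted p = 0.00375) in T-NP. The T-NP value fell to 0.93, 0.98 and 0.99, just under 2-fold, without MG-NP replicate 4, T-NP replicate 3 or T-NP replicate 4.

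The Dhh differences, -1.06 (SE 0.84, limma adjusted p = 0.313) in T-N and -1.68 (SE 0.68, limma adjusted p = 0.0612) in T-NP, did not pass. The T-N difference was near 0 on recovered reads, at -0.04 with edgeR (adjusted p = 0.972) and -0.03 with DESeq2. Mean normalized counts were 81.08 in T-N and 83.37 in MG-N. In T-NP the difference stayed negative with both methods and did not pass. In each genotype limma called Dhh lower only when the tumor with the highest Dhh value of its group was left out. Without T-N replicate 4 the log2 fold change was -1.98 (limma adjusted p = 0.0062), and without T-NP replicate 1 it was -2.26 (limma adjusted p = 0.012).

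Marker lists moved with these changes. Of 12 fibroblast markers 10 were called lower in T-N and 9 in T-NP, and of 7 endothelial markers all 7 were called lower in both. The 7 basal markers were called lower in 7 and 6 cases, while 6 and 7 of 9 luminal markers were called higher and 2 lower. Of 13 cartilage markers 8 could be tested, and 7 of these were called higher. The cartilage genes Acan, Matn1 and Hapln1 stayed under 10 normalized counts in every tumor. All 12 skeletal muscle markers were called lower in T-NP against MG-NP. A skeletal muscle marker score (the mean log2 value of the 12 markers) was also fitted as a covariate in T-NP against MG-NP. Hhip and Gli2 remained called, whereas the calls of Gli1 (log2 fold change -2.19, limma adjusted p = 0.256), Gli3 (-0.87, limma adjusted p = 0.289) and Smo (1.14, limma adjusted p = 0.0685) were lost. With the covariate, calls among all 17880 genes fell from 6925 to 4290. The muscle markers themselves had a median log2 fold change of -7.61, so the covariate cannot fully separate muscle content from the tumor-gland difference. The Smo fold change was not smaller than without it (1.08). T-N replicate 3, with a fibroblast sum of 273400 inside the MG-N range, had the highest Gli2 value of all tumors (33.3). That value still lay below every MG-N gland (lowest 122.3). Its Hhip value was also the highest of the tumors, but within the floor (2.02). The highest tumor values of Gli1 (18.2) and Gli3 (501.5) were in T-NP replicate 3 and T-N replicate 2. The part of the other lists was not tested.

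**Figure D3:**
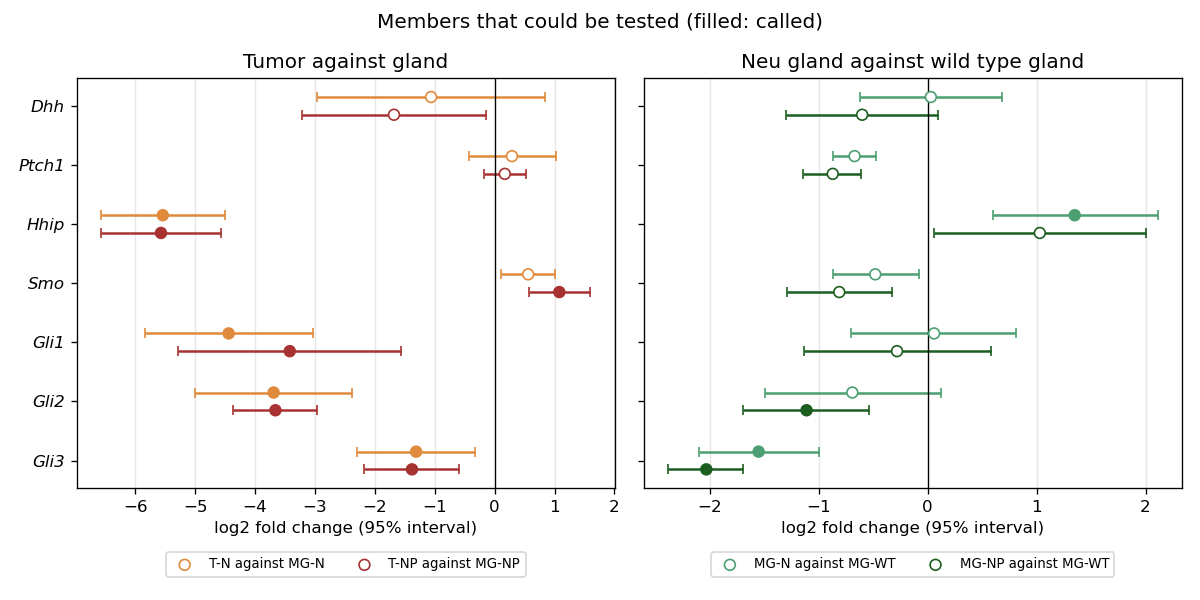
Log2 fold changes with 95% intervals of the 7 genes that could be tested, for tumors against glands (left) and neu glands against wild type glands (right), filled where called. Hhip, Gli1, Gli2 and Gli3 lay below 0 in both tumor comparisons, and Gli3 lay below 0 in both gland comparisons.

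Other components of the pathway were described through a list of 46 genes. In T-N against MG-N, 41 of them could be tested, 5 were called higher and 6 lower, with a median log2 fold change of -0.07. In T-NP against MG-NP, 42 could be tested, 6 were called higher and 7 lower, with a median of -0.38 (all genes -0.07). These shares lay near or below those of all genes. Jag2, a Notch ligand listed as a target, had 780.6 ± 357.6 normalized counts in MG-N and 94.03 ± 42.05 in T-N (SD, n = 4), and in NP mice it ranged from 821 to 1136 in glands and from 92.2 to 119.9 in tumors. The ranges of tumors and glands did not meet, and the log2 fold changes of -3.00 (SE 0.41, limma adjusted p = 0.00059) and -3.19 (SE 0.17, limma adjusted p = 7.95e-06) were the largest falls of the list. Among called genes Cdon, a hedgehog co-receptor, came next in T-N (-2.09, limma adjusted p = 0.000756) and Gpc3, a glypican that binds hedgehog ligands, in T-NP (-2.33, limma adjusted p = 0.00203).

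Among the rises was Ccnd1, which encodes cyclin D1 and is controlled by many pathways, with 3188 ± 1149 normalized counts in MG-N and 22350 ± 12780 in T-N (log2 fold change 2.72, limma adjusted p = 0.000796) and a log2 fold change of 2.95 in T-NP. Sfrp1, a secreted Wnt antagonist, rose by 2.07 in T-N (limma adjusted p = 0.0387). Scube1, whose family includes proteins that help release hedgehog ligands, rose from 78.8 ± 31.5 in MG-NP to 1721 ± 1310 in T-NP (log2 fold change 4.20, limma adjusted p = 0.000386). By role, of 5 co-receptors and other ligand-binding proteins, 1 was called lower in T-N (the co-receptor Cdon). In T-NP 2 were called lower (Cdon and the ligand-binding Gpc3), with Boc called higher. Of the named targets 7 were tested in each genotype, with 3 called higher and 1 lower in T-N (median log2 fold change 1.48), and 3 higher and 2 lower in T-NP (median 0.54). Of the genes of ligand release, 1 was called higher and 2 lower in each, among 5 tested in T-N (median -0.58) and 6 in T-NP (median -0.74). Of 11 cilium genes 1 was called lower in T-N (Gpr161) and 0 in T-NP. Of 13 GLI regulators, 1 was called higher and 1 lower in each, the rise being Stk36 in both.

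**Figure D4:**
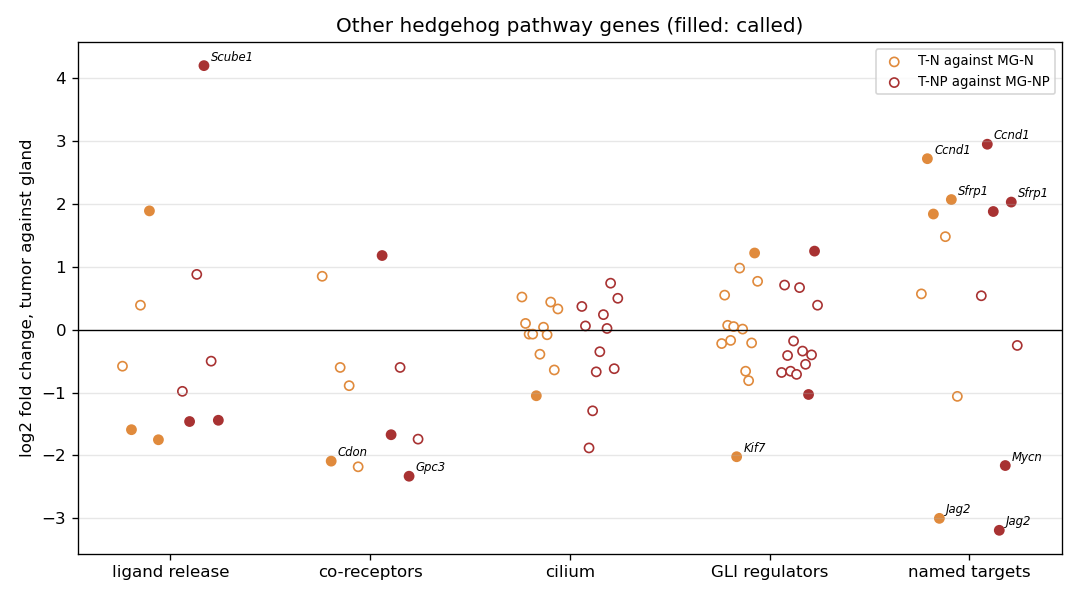
Log2 fold changes (tumor against gland) of the other pathway genes that could be tested, grouped by role and coloured by genotype, filled where called; called genes beyond 2 log2 units are named. Jag2 was the lowest point in both genotypes, and most cilium genes lay near 0.

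Levels between genes were compared as normalized counts per kilobase of exon. In MG-N the order was Smo (354), Ptch1 (85.6), Gli3 (56.4), Gli2 (30), Dhh (19), Gli1 (12.8), Hhip (8.19), Ihh (0.417) and Shh (0.101). The library ranges of Smo (285 to 417) and Ptch1 (83.9 to 87.0) met no neighbour. Each neighbouring pair from Gli3 down to Hhip overlapped in range, as did Ihh and Shh. In T-N the order was Smo (520), Ptch1 (115), Gli3 (25.5), Dhh (18.4), Gli2 (2.50), Ihh (0.824), Gli1 (0.551), Hhip (0.0847) and Shh (0), so that Gli1, Gli2 and Hhip had moved to within a few normalized counts per kilobase of 0 while Smo and Ptch1 kept the first places. Every neighbouring pair from Gli3 down overlapped in T-N, among them Gli3 (12.4 to 52.3) and Dhh (3.21 to 59.7). T-NP had the same first 3 genes at 599, 84.6 and 16.4.

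The second comparison asked whether mutant p53 in the stroma went with different pathway expression, within tumors and within glands. In T-NP against T-N, 5 of the 9 genes could be tested and 0 were called. Among all 16638 genes limma called 6 (0.0361%) higher and 1 (0.00601%) lower, while DESeq2 called 85 and edgeR 0. Hhip and Gli1 were too low in both tumor groups to be tested. The log2 differences were -1.25 for Dhh (95% interval -3.55 to 1.06), -0.33 for Ptch1 (-1.09 to 0.43), 0.20 for Smo (-0.29 to 0.68), -0.40 for Gli2 (-1.70 to 0.91) and -0.56 for Gli3 (-1.70 to 0.59). The ranges of all 5 overlapped, and the intervals for Dhh, Gli2 and Gli3 include changes of more than 2-fold.

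In MG-NP against MG-N, 7 genes could be tested and 0 were called, where 0% of 18563 genes were called by limma (1950 at an unadjusted p under 0.05, 514 called by DESeq2 and 0 by edgeR). The estimates ran from -0.20 for Ptch1 (95% interval -0.43 to 0.02) to -0.63 for Dhh (-1.37 to 0.11), and limma's adjusted p-values were 0.526 to 0.825. Their median was -0.34, beside -0.02 for all genes and -0.90 for the fibroblast markers, whose part was not tested. Gli3 came to -0.48 (-1.02 to 0.05). Ptch1 was the most evenly expressed member, and its 4 MG-NP values all lay below its 4 MG-N values. The share of all genes separated in this way was not computed. MG-N replicate 1, the gland that had Fsp-Cre but not the p53 allele, lay within the range of the other MG-N glands for Gli1 (57.3) and Ptch1 (1228), and had the lowest Hhip (54.8), Smo (1600), Gli2 (122.3) and Gli3 (383.4) values and the highest Dhh value (123.5) of MG-N.

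An interaction contrast over the 16 neu libraries tested whether the tumor-gland difference depended on genotype. It called 0 of the 7 members tested and 0% of 19367 genes by limma (1536 at an unadjusted p under 0.05, 356 by DESeq2). The interaction was 0.53 for Smo (95% interval -0.14 to 1.20, limma adjusted p = 0.724) and 1.02 for Gli1 (-1.29 to 3.32, limma adjusted p = 0.882). Hence the Smo call in T-NP and its absence in T-N are not shown to differ.

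The third comparison set the neu glands beside wild type glands. Both comparisons use the same 3 MG-WT libraries. In MG-N against MG-WT, Gli3 was called lower and Hhip higher among 7 genes tested, beside 17.9% and 19.1% of 19017 genes. In MG-NP against MG-WT, Gli3 and Gli2 were called lower and 0 higher, beside 16.2% and 16.4% of 19065 genes.

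Gli3 had 1628, 1391 and 1567 normalized counts in MG-WT, above all 16 neu libraries, of which the highest was 773.5. Its log2 fold change was -1.55 (SE 0.24, limma adjusted p = 0.000815) for MG-N and -2.03 (SE 0.15, limma adjusted p = 0.000144) for MG-NP. Gli2 had 233.7, 403.7 and 309.5 in MG-WT, which overlapped MG-N (log2 fold change -0.69, limma adjusted p = 0.124) and lay above MG-NP (-1.11, SE 0.25, limma adjusted p = 0.00923). Without MG-WT replicate 2, Gli2 in MG-NP came to -0.92, under 2-fold, and with the muscle covariate it came to -0.87 (limma adjusted p = 0.4). That covariate cut the calls among all 19065 genes from 6217 to 1846. The muscle markers had a median log2 fold change of 11.32 in MG-NP against MG-WT. Here too the covariate cannot fully separate muscle content from the difference between the groups. The Gli2 call was also lost when all 5 groups were fitted together, with the same fold change of -1.11 (limma adjusted p = 0.072).

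Hhip went the other way. Its 31.6, 18.5 and 36.2 normalized counts in MG-WT lay below all 8 neu glands and above all 8 tumors. The log2 fold change was 1.35 (SE 0.33, limma adjusted p = 0.00779) in MG-N, and 1.03 (limma adjusted p = 0.0772) in MG-NP did not pass, although DESeq2 called it (1.12, adjusted p = 0.027). With the muscle covariate, under the same limit, the MG-NP value was -0.03. Gli1 had 40.9, 73.7 and 67.7 in MG-WT, inside the span of the neu glands, and its differences of 0.06 and -0.28 did not pass (limma adjusted p = 0.889 and 0.562).

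Ptch1 stood at 1955, 1929 and 1912 normalized counts in MG-WT, above all neu glands. It was lower by -0.67 (SE 0.09, limma adjusted p = 0.00033) in MG-N and -0.87 (SE 0.11, limma adjusted p = 0.00119) in MG-NP on the log2 scale, which is under 2-fold and not called. Smo, at 2935, 2406 and 2871, also lay above all neu glands, by -0.48 (limma adjusted p = 0.0407) and -0.81 (limma adjusted p = 0.0153). With the muscle covariate, again under that limit, the Smo value for MG-NP was -0.22 (limma adjusted p = 0.792) and the Ptch1 value -0.94 (limma adjusted p = 0.0865). Dhh did not pass in either (0.03 and -0.60, limma adjusted p = 0.94 and 0.134).

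Of the 46 other pathway genes, 43 were tested in each gland comparison, with 13 called lower and 1 higher for MG-N, and 16 lower and 1 higher for MG-NP. Over all genes 17.9% were called lower and 19.1% higher for MG-N, and 16.2% and 16.4% for MG-NP. Scube3 had log2 fold changes of -3.36 and -3.11, and Gas1, a hedgehog co-receptor, fell by 2.53 in MG-N from 3854 ± 966 normalized counts (SD, n = 3) to 664.5 ± 141.2 (limma adjusted p = 5.43e-05). In MG-NP the next largest fall among called genes was Ccnd1 (-2.55, limma adjusted p = 0.00812). Gpc3 was the single rise in both (2.27 and 1.42). The median of the list was -0.42 for MG-N and -0.56 for MG-NP, beside 0.02 for all genes. In the same comparisons all 9 adipocyte markers were called higher, as were 10 and 12 of 12 skeletal muscle markers and 9 and 5 of 12 fibroblast markers (1 lower for MG-NP). Of the others, 8 of 9 luminal and all 7 basal markers were called lower, and 7 and 6 of 7 macrophage markers higher. Depth differed as given above. Of these 2 comparisons only that of MG-NP was fitted with the muscle covariate, and the part of the other lists was not tested.

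Finally, variation within groups was compared over the 16 neu libraries, after the mean of each group was taken from its log2 values. There were 5 members that had a mean of at least 50 normalized counts, and these were set against 14724 genes. The correlations below share library scaling and cell composition and are given without a test. Closest to Dhh were Bmx, a TEC family kinase (Pearson r = 0.89), Mtus2 (0.87) and Map2k1 (0.85). Closest to Ptch1 were Mecom (0.91), Pkp4 (0.91) and Pitpnb (0.89). Closest to Smo were Pelp1 (0.94), Cd276 (0.91) and Nab2 (0.91).

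Gli2 was most like Rab7b (0.95), Rasgrf2 (0.94) and Ext1 (0.93), the last of which encodes a heparan sulfate polymerase. Gli3 was most like Prep (0.93), Tnfrsf10b (0.92) and Gpc6 (0.91). Among the members, Dhh and Ptch1 were the closest pair (r = 0.76, Spearman's rho = 0.60), and r was 0.65 over the 14 libraries left without T-N replicate 4 and T-NP replicate 1, the 2 farthest from the median of Dhh. T-N replicate 4 had the highest Dhh and the highest Ptch1 of all libraries. Smo and Gli3 came next (r = 0.69, rho = 0.71, and 0.65 without the 2 farthest libraries), whereas r was -0.31 for Gli2 and Gli3 (rho = -0.17) and turned to 0.28 without the 2 farthest libraries.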

How the data were processed

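The signal deposited by the authors is 1 table of normalized counts, 46078 genes by 19 libraries; all columns were used. RNA was sequenced as paired reads and aligned to GRCm38 with TopHat2 2.1.1 and Bowtie2. The counter, its annotation and its strand setting are not given in the sources used here. The sample records name a stranded total RNA kit and the study's methods an mRNA kit. Values were whole multiples of a step per library, from which reads were recovered (100% of values whole, tolerance 0.05 reads). GENCODE vM21 names matched 98.16% of identifiers.

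Log2(normalized count + 1) of each comparison's groups was fitted with limma 3.58.1 (trend) over all genes with at least 10 normalized counts in as many samples as the smaller group, with Benjamini-Hochberg adjustment. The fit was tested on simulated data. edgeR 4.0.16 and DESeq2 1.42.0 on recovered reads were alternatives, beside other pseudocounts, filters, scalings and left-out libraries. The floor was 3 reads per library, and a group with no library above it counted as at this floor. This covers counting error only.

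The members and all lists were chosen with earlier results of these data known. Named genes were the 9 members, the 2 largest called rises and falls of the pathway list per comparison, and the 3 genes most like each member with a mean of at least 50; other list genes named were chosen after their values were seen. The summed level of hair follicle markers was at most 83.9 in any library. Samples of different groups were not paired by replicate number. An item of the pathway list is not reported here.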

Additional observations from a re-analysis of the deposited data

Results flagged for a closer look

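Among 28 pairs of a member and a group of 4 libraries, 4 had a library far from the other 3, where chance flags about 1 in 20 groups. Dhh in T-N replicate 4 was 262.6 normalized counts, with a gap to the nearest tumor of 0.934 of the group's range. Ptch1 in T-NP replicate 3 was 892.3, the lowest of its group (0.839 of the range). In MG-NP replicate 4, Gli1 was 81.35, the highest of its group (0.859), and Gli3 was 312.5, the lowest (0.918). The causes were not tested.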

How the results depend on the processing

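Over all alternatives, the counts of members called stayed within 1.5 times the main count in 126 cases and moved in 9. The 126 include every alternative of T-NP against T-N, MG-NP against MG-N and the interaction, where 0 members were called throughout. Few or no genes at all were called there, so these cases say little about stability. All 9 moves were in the other comparisons. Requiring a mean of at least 50 normalized counts left 2 members called in T-N against MG-N (4 otherwise) and 3 in T-NP against MG-NP (5 otherwise), since Gli1 and Hhip left the test. The muscle covariate left 2 in T-NP against MG-NP, while calls among all genes fell from 6925 to 4290. Without a fold threshold 4 were called in each comparison with MG-WT (2 otherwise). In MG-NP against MG-WT, 1 was called with the replicate block, with all 5 groups in the fit and with the muscle covariate. Leaving out each library in turn gave 3 to 4 called in T-N against MG-N, 4 to 6 in T-NP against MG-NP, 1 to 2 for MG-NP and 2 for MG-N against MG-WT, and 0 elsewhere.

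Same-numbered samples did not deviate together (r -0.257 to 0.285 over 22 pairs, 1 above 0.1), and not every sample was closest to its own number in any comparison; the replicate block moved Gli2 in MG-NP against MG-WT to -1.03 (limma adjusted p = 0.0595) and changed no other count of members called. Of single-gene values, 841 kept direction and side of the threshold. Directions turned for Hhip in MG-NP against MG-WT with the muscle covariate (-0.03, 1.03 otherwise), the Hhip interaction with a pseudocount of 5 (0.19) and the Gli2 interaction with edgeR (-0.15) and DESeq2 (-0.17). Leaving out single libraries turned Gli2 in T-NP against T-N (-0.90 to 0.01), Dhh (-0.18 to 0.19) and Gli1 (-0.20 to 0.22) in MG-N against MG-WT, and the interactions of Dhh (-1.20 to 0.30), Ptch1 (-0.41 to 0.14), Hhip (-0.33 to 0.28), Gli2 (-0.47 to 0.43) and Gli3 (-0.40 to 0.34). Except for the filters, the causes were not tested. Without a filter Ihh was called lower in both neu glands than in MG-WT (limma adjusted p = 0.00726 and 0.0104). Depth limits Shh, Ihh and, in tumors, Hhip and Gli1.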
